A study of Mus musculus with 8 samples.

Results

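The genes described here are 10 genes of the ATF4 amino acid and stress response, namely Atf4, Ddit3, Trib3, Chac1, Phgdh, Psat1, Shmt2, Mthfd2, Asns and Slc7a11. They were named by symbol, in a list drawn up with earlier results of these data known, and matched 11 of the 55335 genes in the count table, because Ddit3 has a second gene ID (ENSMUSG00000116429.1) that held 0 counts in all 8 libraries. The other 10 genes passed the filter on low counts, as did 16504 genes in all.

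The counts came from RNA-seq of the mouse embryonic stem cell line E14 (E14 ESCs), in which lentiviral shRNAs lowered the SOX2 transcription factor, the RNA-binding protein hnRNPK or the elongation kinase CDK9. There were 4 groups of 2 biological replicates, namely the negative control shRNA (labelled NG), shSox2, shHnrnpk and shCdk9, called below control, Sox2-KD, hnRNPK-KD and Cdk9-KD. All groups, control included, were infected and drug-selected with puromycin before RNA was taken. Which of the shRNAs against a gene each library received was not stated, and no source said that the replicates were separate infections, so that p-values measure the spread between these libraries.

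Total counts ranged from 16709201 to 17719366 per library. Sox2 itself was at 412 and 530.3 CPM (the share of a library's counts, scaled with TMM) in control and at 320.4 and 284 CPM in Sox2-KD E14 ESCs (log2FC -0.64, adjusted p = 0.0479, edgeR quasi-likelihood test). Cdk9 was at 109 and 129 CPM in control and at 73.1 and 53.2 CPM in Cdk9-KD (log2FC -0.91, adjusted p = 0.0985, edgeR). Hnrnpk was at 1094 and 1131 CPM in control, while the libraries labelled hnRNPK-KD had 697 CPM in replicate 1 and 1144 CPM in replicate 2. Only replicate 1 showed a lower Hnrnpk mRNA, and each direction given for that group carries this limit. The 8 ESC markers were detected in every library, with a summed level between 4830 and 6579 CPM. The sum was 4830 to 5336 CPM in Sox2-KD and 5233 to 6197 CPM in control.

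ATF4 is a transcription factor whose mRNA is translated more efficiently when the initiation factor eIF2α is phosphorylated, which happens under amino acid shortage, ER stress, haem shortage or viral infection. It then drives genes for amino acid synthesis and import, for the folate-linked one-carbon pathway in mitochondria and for feedback or cell death. Much of its control is translational, so that Atf4 mRNA is only a partial readout of the protein, and protein was not measured in these counts. In embryonic stem cells, serine and one-carbon enzymes supply the nucleotides and methyl groups that rapid division uses.

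ATF4 binds DNA together with C/EBP proteins at a composite element, of which TGATGNAA was taken here as the letters to search (N is any base), with its reverse complement TTNCATCA. The search covered promoter windows of 300 bases from RefSeq (build GRCm38.p6), from 250 bases before to 50 bases after each start. Of the 10 genes, 4 had the letters in such a window, in 4 of their 11 windows (36.4%), against 1304 of 32851 windows of all genes (3.97%). Among the other genes of the pathway described below, 14 of 74 windows had them (18.9%), with windows found for 60 of the 77 listed genes. Stretches from 3 of the 4 are printed because these promoters carry the element upstream of the RefSeq start. Each is read 5′ to 3′ on the strand of the gene with the matching letters in capitals. The Asns stretch is chr6:7693210-7693254 (− strand), that of Chac1 is chr2:119351027-119351078 (+ strand) and that of Slc7a11 is chr3:50443631-50443701 (− strand).
Asns: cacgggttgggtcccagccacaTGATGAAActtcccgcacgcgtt
Chac1: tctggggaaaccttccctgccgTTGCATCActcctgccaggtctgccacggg
Slc7a11: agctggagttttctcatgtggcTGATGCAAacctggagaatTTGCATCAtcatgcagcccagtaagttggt
The match of Asns began 23 bases upstream of the start and that of Chac1 193 bases upstream. Slc7a11 had 2 matches, on opposite strands, at 66 and 47 bases upstream. The match of Trib3 lay 14 bases after the start. These places are counted from RefSeq starts. The GENCODE gene models start at 152344032 for Trib3 and at 7693254 for Asns, both on the − strand. By these models the match of Trib3 lies before the start and that of Asns after it, so that the annotation decides the side. No match was found in the windows of Atf4, Ddit3, Psat1, Phgdh, Shmt2 or Mthfd2, which says only that these letters are not in these windows.

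By the quasi-likelihood test in edgeR, 1 gene in 1 comparison passed both thresholds (adjusted p under 0.05, log2FC beyond 0.6 in either direction). Psat1, the transaminase of serine synthesis, was lower in Sox2-KD E14 ESCs, at 56.3% of control. In that comparison 1 of the 10 genes was called by edgeR and 2 by DESeq2 (Psat1 and Mthfd2), where 4.32% and 6.23% of all genes tested were. By edgeR 3 of 10 had an unadjusted p under 0.05 (Psat1, Mthfd2 and Asns), where 19.3% of all genes did. For the libraries labelled hnRNPK-KD, edgeR called 0 of 10 and DESeq2 also 0, with 3 of 10 at an unadjusted p under 0.05 (Trib3, Chac1 and Psat1). Over all genes tested edgeR called 0% and DESeq2 0.503%, and 8.03% had an unadjusted p under 0.05 by edgeR. For Cdk9-KD E14 ESCs both tools called 0 of 10, where edgeR called 0.139% and DESeq2 1.35% of all genes. By edgeR 1 of 10 had an unadjusted p under 0.05 (Psat1), where 10.4% of all genes did.

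The level in both Sox2-KD libraries was below both control libraries for 6 of the 10 genes and above both for 0, against 25.2% and 28.2% of all genes tested. For the libraries labelled hnRNPK-KD these counts were 4 and 0, against 18.7% and 20.4%. For Cdk9-KD they were 1 and 2, against 18.0% and 21.2%. Over the 10 genes the median log2FC came to -0.42 (Sox2-KD), -0.40 (hnRNPK-KD) and -0.00 (Cdk9-KD), whereas that of all genes tested was 0.02 in each. These 3 comparisons share the same control libraries, so that a control library with unusual levels enters all of them.

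**Figure D1:**
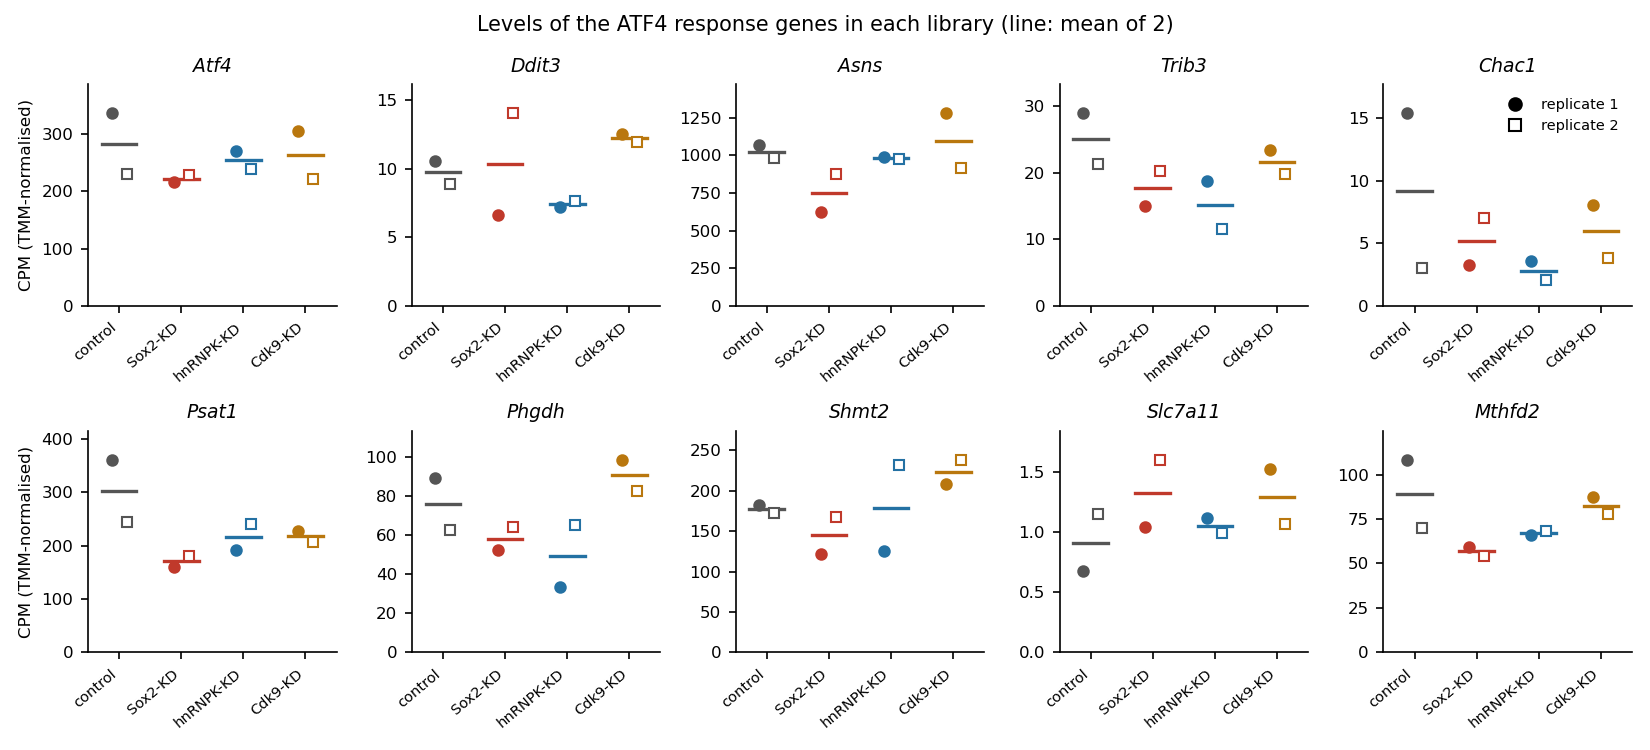
TMM-normalised CPM (y axis, from 0, with its own scale in each panel) of the 10 ATF4 response genes in the 4 groups (x axis), with 1 point per library and a line at the mean of 2. Control replicate 1 has the highest level of all 8 libraries for Atf4, Trib3, Chac1, Psat1 and Mthfd2.

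Levels per kilobase of annotated exon differed widely between the genes in control. Asns had the highest level with 375 CPM per kb, followed by Atf4 with 120.3 and Psat1 with 71.1 CPM per kb. Shmt2 (57.0 CPM per kb) was next below Psat1, and Mthfd2 (25.6) was below Phgdh (30.6). Both orders held within each control library, although the ranges over the 2 control libraries overlapped. The feedback and death genes were lower, with Trib3 at 11.8, Ddit3 at 5.68 and Chac1 at 5.62 CPM per kb, the last pair overlapping. Slc7a11 was close to the filter, at 0.0654 CPM per kb, and its 8 libraries held between 12 and 28 reads each.

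Atf4 itself (ENSMUSG00000042406.8, chromosome 15 from 80255184 to 80257541, + strand) was at 336 and 231 CPM in control and at 217 and 228 CPM in Sox2-KD E14 ESCs. The libraries labelled hnRNPK-KD had 271 and 239 CPM, and Cdk9-KD had 306 and 221 CPM. Both Sox2-KD libraries lay just below the lower control library, while the other knockdowns overlapped with control. Its log2FC was -0.35 in Sox2-KD (95% interval -0.80 to 0.10, adjusted p = 0.391, edgeR), -0.16 in hnRNPK-KD (adjusted p = 0.914) and -0.11 in Cdk9-KD (adjusted p = 0.914). The lower ends of the latter intervals were -0.61 and -0.56.

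Ddit3 (ENSMUSG00000025408.15), which encodes the transcription factor CHOP of prolonged ER stress, was at 10.6 and 8.88 CPM in control. Sox2-KD E14 ESCs had 6.65 and 14.0 CPM, which are the lowest and the highest of all 8, so that the log2FC of 0.09 averaged replicates on opposite sides of control. In hnRNPK-KD its level was 7.21 and 7.62 CPM and in Cdk9-KD 12.5 and 11.9 CPM, without overlap with control in either group. The adjusted p-values were 0.839 and 0.777 (edgeR), and the change was not called. Cdk9-KD against hnRNPK-KD gave a log2FC of 0.72 (95% interval 0.01 to 1.43, unadjusted p = 0.0485, adjusted p = 0.872). Its exons share 68 bases with Mars and 13 with Gm4189 on the opposite strand and 105 with the second Ddit3 ID, and since no strand setting was stated its counts are uncertain there.

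Trib3 (ENSMUSG00000032715.9) encodes a pseudokinase that ATF4 and CHOP induce and that feeds back on them. It was at 28.9 and 21.3 CPM in control, 15.1 and 20.2 CPM in Sox2-KD, 18.7 and 11.5 CPM in hnRNPK-KD and 23.4 and 19.8 CPM in Cdk9-KD. Both libraries of Sox2-KD and of hnRNPK-KD lay below both control libraries. The log2FC was -0.51 in Sox2-KD (SE 0.27, adjusted p = 0.345, edgeR) and -0.73 in hnRNPK-KD (SE 0.27, adjusted p = 0.537), and in Cdk9-KD it was -0.22.

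Chac1 (ENSMUSG00000027313.3, chromosome 2 from 119351229 to 119354381, + strand) encodes an enzyme that degrades glutathione and is among the most inducible targets of ATF4. Its control libraries lay further apart than its replicates in any knockdown, with 273 reads (15.4 CPM) in replicate 1 and 53 reads (3.04 CPM) in replicate 2. Only 0.0568% of the 12330 genes with an average log2 CPM over 1 had a difference at or above this one, 2.34 on the log2 scale. The knockdown libraries had 3.30 and 7.02 CPM in Sox2-KD, 3.58 and 2.04 CPM in hnRNPK-KD and 8.06 and 3.84 CPM in Cdk9-KD. The log2FC of -1.71 in hnRNPK-KD (SE 0.68, adjusted p = 0.573, edgeR) was the largest of the 10 genes in any comparison with control, yet hnRNPK-KD replicate 1 lay above control replicate 2. It ranged from -0.14 when control replicate 1 was left out to -2.46 when control replicate 2 was. In Sox2-KD the log2FC of -0.84 turned to 0.74, and in Cdk9-KD that of -0.63 to 0.93, once control replicate 1 was left out.

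The serine pathway starts with Phgdh (ENSMUSG00000053398.11), the dehydrogenase that commits a glycolytic intermediate to serine. It was at 89.6 and 62.7 CPM in control, 52.3 and 64.4 CPM in Sox2-KD, 33.7 and 65.5 CPM in hnRNPK-KD and 98.8 and 82.9 CPM in Cdk9-KD. The lowest of the 8 libraries was hnRNPK-KD replicate 1, the one with the lower Hnrnpk mRNA, while replicate 2 overlapped with control. For Trib3 and Chac1 the lowest library was hnRNPK-KD replicate 2, in which Hnrnpk was at the control level. Against control the log2FC of Phgdh was -0.39 in Sox2-KD (adjusted p = 0.503, edgeR), -0.62 in hnRNPK-KD (adjusted p = 0.628) and 0.25 in Cdk9-KD (adjusted p = 0.816). With hnRNPK-KD replicate 1 alone it was -1.20. The pseudogene Phgdh-ps1 on chromosome 7 may share reads with it.

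Psat1 (ENSMUSG00000024640.9, chromosome 19 from 15904678 to 15947337, − strand) was at 361 and 244 CPM in control, or 302 ± 82.4 CPM (SD, n = 2). In Sox2-KD E14 ESCs it was at 160.3 and 180.3 CPM, or 170.3 ± 14.1 CPM (SD, n = 2). These were the lowest levels of all 8 libraries, with no overlap with any other group. The log2FC was -0.83 (SE 0.20, 95% interval -1.26 to -0.40, adjusted p = 0.0407, edgeR), close to the threshold. Without control replicate 1 it was -0.54 and the call was lost, and without control replicate 2 it was -1.09. The call was also lost without Sox2-KD replicate 1 (log2FC -0.76) and without Sox2-KD replicate 2 (log2FC -0.92). Each of these fits leaves 1 library in a group, so that the loss cannot be assigned to 1 library. With library totals in place of TMM the adjusted p was 0.0561 and with the replicate number as a block 0.0588, in both cases past the limit for a call.

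Psat1 levels in the other knockdowns lay between those of control and Sox2-KD. The libraries labelled hnRNPK-KD had 192 and 240.5 CPM (log2FC -0.48, 95% interval -0.92 to -0.05, adjusted p = 0.574, edgeR), and Cdk9-KD had 227 and 207 CPM (log2FC -0.48, 95% interval -0.91 to -0.05, adjusted p = 0.432). All these libraries lay below both control libraries. The difference of Sox2-KD itself was -0.34 against hnRNPK-KD (95% interval -0.77 to 0.09, adjusted p = 0.348) and -0.35 against Cdk9-KD (95% interval -0.78 to 0.08, adjusted p = 0.336). The lower Psat1 mRNA was thus called against control alone and was not shown to be particular to Sox2-KD.

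Mthfd2 (ENSMUSG00000005667.8), the mitochondrial dehydrogenase and cyclohydrolase of the one-carbon pathway, was the next closest to the threshold. It was at 108 and 70.1 CPM in control, 59.4 and 54.4 CPM in Sox2-KD, 66.0 and 68.0 CPM in hnRNPK-KD and 87.4 and 77.6 CPM in Cdk9-KD. Sox2-KD and hnRNPK-KD did not overlap with control, both being lower, and their replicates were close to each other. In Sox2-KD the log2FC was -0.65 (SE 0.20, 95% interval -1.08 to -0.21, adjusted p = 0.0944, edgeR), while DESeq2 gave an adjusted p of 0.0357. In hnRNPK-KD it was -0.41 (adjusted p = 0.640) and in Cdk9-KD -0.11 (adjusted p = 0.902).

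Shmt2 (ENSMUSG00000025403.5), the mitochondrial enzyme that splits serine into glycine and a one-carbon unit, had control libraries that nearly coincided, at 182 and 172 CPM. It was at 121 and 168 CPM in Sox2-KD, 126 and 232 CPM in hnRNPK-KD and 208 and 238 CPM in Cdk9-KD. Both Sox2-KD libraries lay below control and both Cdk9-KD libraries above it, whereas the 2 libraries labelled hnRNPK-KD lay on opposite sides. The log2FC was -0.29 in Sox2-KD (adjusted p = 0.582, edgeR), 0.33 in Cdk9-KD (adjusted p = 0.698) and 0.01 in hnRNPK-KD (95% interval -0.55 to 0.57), the last -0.52 with replicate 1 alone. Its exons share 32 bases with Ndufa4l2 on the opposite strand.

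Asns (ENSMUSG00000029752.12), asparagine synthetase and the textbook target of the amino acid response, was the most abundant of the genes. It was at 1065 and 984 CPM in control, 622 and 877 CPM in Sox2-KD, 987 and 977 CPM in hnRNPK-KD and 1278 and 916 CPM in Cdk9-KD. Both Sox2-KD libraries were lower than the other 6, replicate 1 far more so than replicate 2. The log2FC in Sox2-KD was -0.45 (SE 0.20, 95% interval -0.88 to -0.02, adjusted p = 0.241, edgeR), and those of hnRNPK-KD (-0.06, 95% interval -0.49 to 0.37) and Cdk9-KD (0.10, 95% interval -0.33 to 0.53) lay near 0.

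Slc7a11 (ENSMUSG00000027737.10), the cystine importer that feeds glutathione synthesis, had 12 and 20 reads in control, 19 and 28 in Sox2-KD, 19 and 17 in hnRNPK-KD and 26 and 18 in Cdk9-KD. Its level of 0.676 CPM in control replicate 1 was the lowest of the 8 libraries, the opposite of Atf4, Trib3, Chac1, Psat1 and Mthfd2. The log2FC was 0.53 in Sox2-KD (95% interval -0.50 to 1.56, adjusted p = 0.585, edgeR), 0.21 in hnRNPK-KD and 0.50 in Cdk9-KD. No difference of Slc7a11 was called, and the interval in Sox2-KD held values of either sign.

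**Figure D2:**
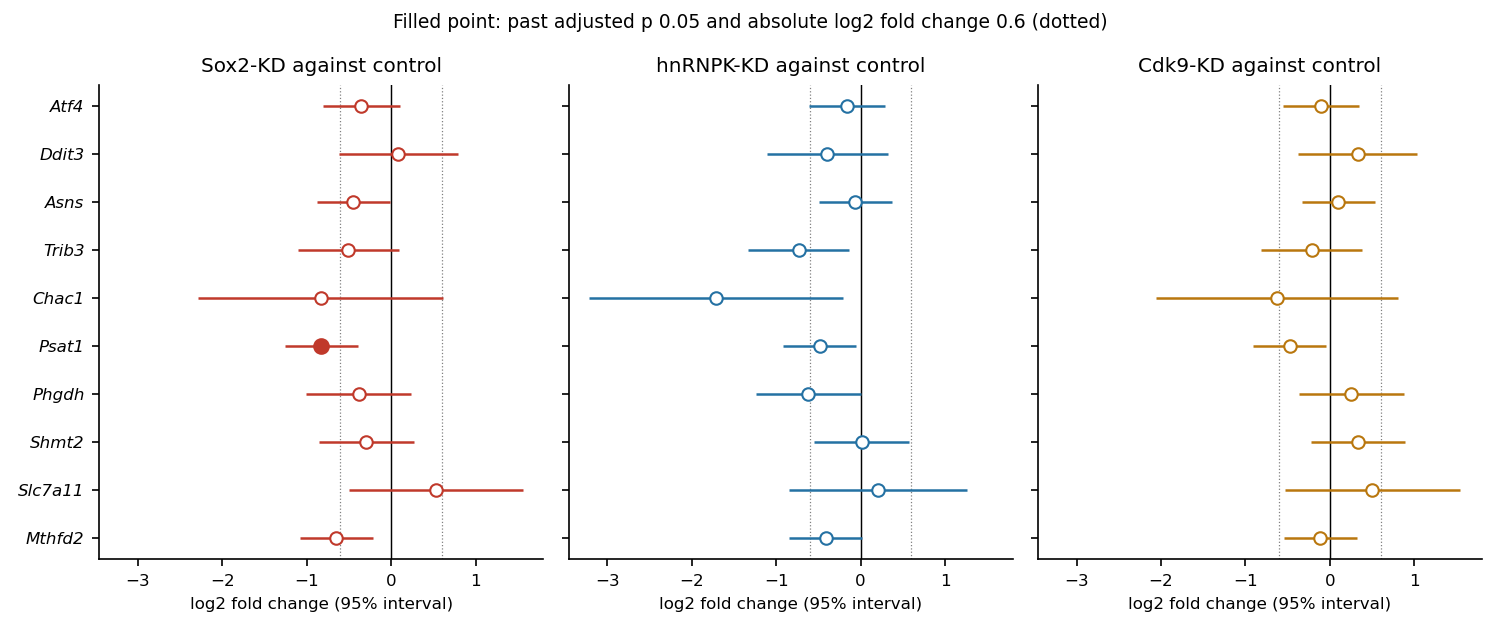
Log2FC against control with approximate 95% intervals (x axis) for the 10 genes (y axis) in the 3 knockdowns, with dotted lines at an absolute log2FC of 0.6. Only the Psat1 point in Sox2-KD is filled, past both thresholds (log2FC -0.83), and the widest intervals belong to Chac1.

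The control libraries moved with these results. Control replicate 1 was the highest of all 8 libraries for 5 of the 10 genes, which held for 8.62% of all genes tested, and control replicate 2 for 0 of 10. The log2 difference of control replicate 1 over replicate 2 was 0.63 for Mthfd2, 0.56 for Psat1, 0.54 for Atf4, 0.52 for Phgdh and 0.44 for Trib3. It was only 0.11 for Asns and 0.08 for Shmt2. At the low end, Sox2-KD replicate 1 was the lowest library for 5 of 10 genes, against 11.3% of all genes.

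Because the controls are shared, leaving 1 of them out shifts a gene alike in all 3 knockdowns. Without control replicate 1, the log2FC in Sox2-KD was -0.07 for Atf4, -0.12 for Phgdh, -0.29 for Trib3 and -0.32 for Mthfd2. Without control replicate 2 it was -0.61, -0.63, -0.72 and -0.94 for the same genes. Asns moved little between these fits, from -0.41 to -0.51, and so did Shmt2, from -0.27 to -0.34. Leaving out 1 Sox2-KD library moved them more, to between -0.72 and -0.23 for Asns and between -0.55 and -0.09 for Shmt2. Both kept a Sox2-KD level below either control library alone, but neither was called.

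**Figure D3:**
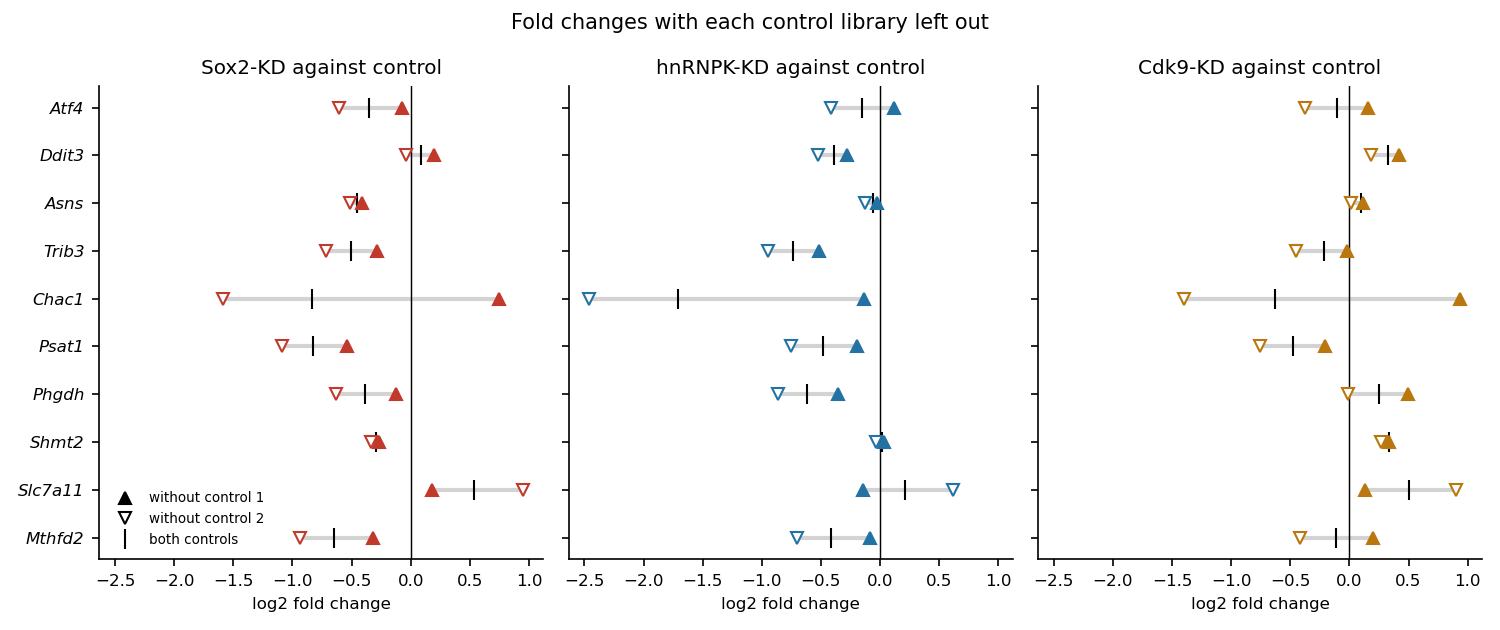
Log2FC against control (x axis) of the 10 genes (y axis) in the 3 knockdowns, with both control libraries (bar), without control replicate 1 (filled triangle) and without control replicate 2 (open triangle). Chac1 spans the widest range and crosses 0 in Sox2-KD (-1.58 to 0.74) and Cdk9-KD (-1.40 to 0.93).

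**Figure D4:**
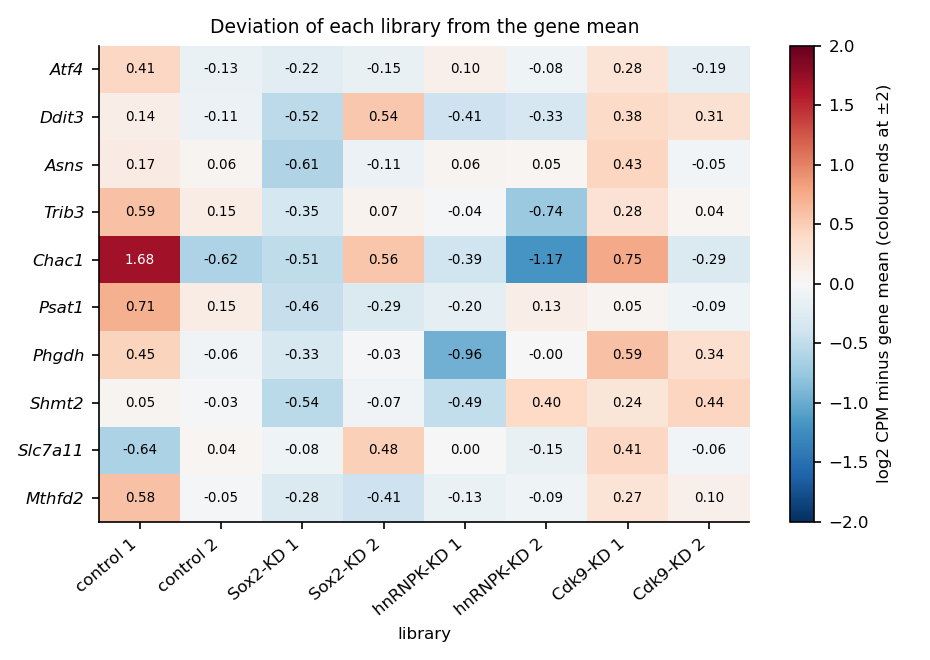
Log2 CPM of each gene (rows) in each of the 8 libraries (columns) minus the mean of the gene over the libraries, printed in each cell and coloured up to 2 on either side. Control replicate 1 and Cdk9-KD replicate 1 are above the mean for 9 and 10 of the 10 genes, and Sox2-KD replicate 1 is below it for 10.

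The 10 genes varied partly together over the 8 libraries. The Pearson correlation of each gene with the mean of the others ranged from 0.47 for Shmt2 to 0.75 for Asns, with Slc7a11 apart at -0.18. Of the single genes, Mthfd2 (0.81), Chac1 (0.74), Psat1 (0.71) and Asns (0.71) were closest to Atf4, and Shmt2 (0.09) was not. These are descriptions over 8 libraries that share depth, normalisation and groups. The genes outside the list with the profile most like the mean of the 10, among 12321 with an average log2 CPM over 1, were Acsbg2 (r = 0.97), Npepl1 (0.96), Ncaph2 (0.95), Mrnip (0.95) and Hspb6 (0.93). Without the 2 libraries at the ends of the mean profile, Sox2-KD replicate 1 and Cdk9-KD replicate 1, these correlations were between 0.83 and 0.93. None of these 5 genes was called in a comparison with control.

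The knockdowns were also set against each other, which leaves the control libraries out of the contrast. Sox2-KD against hnRNPK-KD gave 0 of 10 calls by edgeR and by DESeq2, where 5.90% and 7.73% of all genes were called. By edgeR 0 of 10 had an unadjusted p under 0.05, where 21.3% of all genes did. Sox2-KD against Cdk9-KD gave 0 calls by either tool, where edgeR called 7.33% and DESeq2 8.68% of all genes. By edgeR 4 of 10 had an unadjusted p under 0.05, where 21.7% of all genes did. Those 4 were Asns (log2FC -0.55, unadjusted p = 0.0178), Mthfd2 (-0.54, 0.0199), Shmt2 (-0.63, 0.0324) and Phgdh (-0.64, 0.0448). Their adjusted p-values lay between 0.126 and 0.216 (edgeR). For each of them both Sox2-KD libraries lay below both Cdk9-KD libraries, which was not counted over all genes. Of the 10 genes 9 had a log2FC below 0, where 52.4% of all genes tested did.

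Cdk9-KD against hnRNPK-KD gave 0 of 10 calls by either tool, where edgeR called 0% and DESeq2 0.339% of all genes. By edgeR 2 of 10 had an unadjusted p under 0.05, against 5.71% of all genes. Those 2 were Ddit3 (above) and Phgdh, with a log2FC of 0.87 (SE 0.28, unadjusted p = 0.0107, adjusted p = 0.740, edgeR). Both Cdk9-KD libraries lay above both libraries labelled hnRNPK-KD for 5 of the 10 genes, namely Ddit3, Trib3, Chac1, Phgdh and Mthfd2. How many of all genes did so was not counted, so that this count has no background to be read against.

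Several markers of other cell types differed in Sox2-KD. The summed level of 7 primitive endoderm markers was 396 to 531 CPM in Sox2-KD against 134 to 183 CPM in control, that of 7 trophectoderm markers 185 to 316 CPM against 89.0 to 101 CPM. Among them Sparc, Dab2, Gata6, Krt8, Krt18, Gata3 and Eomes were called higher (edgeR), whereas Cdx2 was at 6.10 and 6.22 CPM against 19.8 and 35.1 CPM in control (log2FC -2.15, adjusted p = 0.0521), and Tfap2c (-0.50) and Gata4 (-0.25) also had values below 0. Most of the primitive endoderm sum was Sparc, at 354 and 469 CPM in Sox2-KD against 130 and 178 CPM in control. In the other knockdowns the primitive endoderm sum was 145 to 212 CPM and the trophectoderm sum 80.0 to 130.1 CPM. These sums hide 2 trophectoderm markers called in Cdk9-KD (edgeR, 0.139% of all genes called). Eomes was higher, at 19.5 and 14.3 CPM against 3.83 and 2.58 CPM in control. Tfap2c was lower, at 13.1 and 7.81 CPM against 43.4 and 43.0 CPM. The sum of 4 neuroectoderm markers was 46.7 to 60.5 CPM in Sox2-KD against 59.2 to 76.8 CPM in control. Of these, Sox1 was called lower in Sox2-KD, at 0.549 and 0.514 CPM against 5.63 and 2.98 CPM (log2FC -3.00, adjusted p = 0.0102, edgeR), and Tubb3 had a log2FC of -0.67 (adjusted p = 0.155). That of 6 fibroblast markers was 2.19 to 6.19 CPM over all groups. Foxa2, Elf5, Pax6, Col3a1, Dcn and Postn did not pass the filter, with at most 14 reads in any library. Of the 8 ESC markers, Utf1 was called higher in Sox2-KD (edgeR), at 50.5 and 48.1 CPM against 25.8 and 30.9 CPM in control. In that comparison 6 of the 8 had a log2FC below 0, where 48.2% of all genes tested did. In bulk RNA, fewer cells of a type and less RNA per cell cannot be told apart, and the part of these markers in the values of Psat1 and the other genes was not tested.

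The rest of the pathway was read from 8 lists with 77 genes, of which 76 were tested and Fgf21 was not. In Sox2-KD E14 ESCs 4 of these 76 genes were called, all lower, with 21 at an unadjusted p under 0.05, beside 4.32% and 19.3% of all genes tested. The libraries labelled hnRNPK-KD gave 0 calls by edgeR and DESeq2 (0% and 0.503% of all genes), with 10 at an unadjusted p under 0.05 (8.03% of all genes). Cdk9-KD also gave 0 calls by both (0.139% and 1.35% of all genes), with 4 at an unadjusted p under 0.05 (10.4% of all genes). The share of calls in Sox2-KD was thus near that of all genes.

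Slc7a3, a carrier of arginine and lysine, had the largest difference. It was at 95.6 and 64.2 CPM in control and at 15.6 and 12.2 CPM in Sox2-KD (log2FC -2.52, SE 0.25, adjusted p = 0.00198, edgeR), and was called without either control library too (log2FC -2.22 and -2.79). In hnRNPK-KD it was at 89.9 and 137 CPM and in Cdk9-KD at 135 and 131 CPM, so that the Sox2-KD libraries stood apart from all others. Sox2-KD was also called lower than either of these groups. Over the whole transporter list 8 of 8 log2FC were below 0 in Sox2-KD, with a median of -0.48. Slc6a9, a glycine transporter, had -1.02 (adjusted p = 0.171) in Sox2-KD and -1.27 (adjusted p = 0.479) in hnRNPK-KD, with -0.64 in Sox2-KD without control replicate 1.

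The other calls in Sox2-KD were enzymes of the serine, glycine, proline and one-carbon list. Cth, the last enzyme of cysteine synthesis from methionine, was at 112 and 103 CPM in control and at 58.4 and 64.9 CPM in Sox2-KD (log2FC -0.80, adjusted p = 0.0130, edgeR). Aldh18a1, which starts proline synthesis, was at 111 and 78.7 CPM against 48.4 and 55.1 CPM (log2FC -0.88, adjusted p = 0.0362). Shmt1, the cytosolic counterpart of Shmt2, was at 172 and 200.2 CPM against 128 and 109.5 CPM (log2FC -0.65, adjusted p = 0.0340). The levels of all 3 in Sox2-KD lay below every control library, and without control replicate 1 the log2FC was -0.76, -0.62 and -0.77 (adjusted p = 0.0909, 0.235 and 0.0829). Without control replicate 2 it was -0.86, -1.11 and -0.54 (adjusted p = 0.0631, 0.0462 and 0.220), so that with either control alone Cth and Shmt1 kept their direction but not the call.

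In that list 10 of 11 log2FC were below 0 in Sox2-KD with a median of -0.51, beside the all-gene median of 0.02. In hnRNPK-KD 11 of 11 were below 0 with a median of -0.39, led by Pck2 (-0.74, adjusted p = 0.522, edgeR, and -0.47 without control replicate 1) and Gpt2 (-0.71, adjusted p = 0.494), and 0 were called. In Cdk9-KD 8 of 11 were below 0 with a median of -0.13. The RefSeq promoter windows of Aldh18a1, Shmt1 and Psat1 did not hold the letters TGATGNAA. Cth and Slc7a3 had no promoter window, so that they were not searched.

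Other arms of the response gave 0 calls against control by edgeR and by DESeq2, where in Sox2-KD 4.32% and 6.23% of all genes were called. Of 13 genes for aminoacyl-tRNA synthetases and the tRNA exporter Xpot, 12 had a log2FC below 0 in Sox2-KD with a median of -0.32. The 7 genes for eIF2α, its kinases and its phosphatase subunits had medians between -0.04 and -0.03 in the knockdowns. At an unadjusted p under 0.05, which 19.3% of all genes passed in Sox2-KD, there were 4 of 13 synthetases (Lars, Nars, Tars and Yars, all lower) and 1 of 7 genes of the eIF2α list (Eif2s1, lower) in Sox2-KD, and 0 of either list in the other knockdowns, these genes being named after their values were seen. The 14 genes of the ER chaperone arm had medians of -0.03 in Sox2-KD, -0.22 in hnRNPK-KD and 0.07 in Cdk9-KD, with 0, 1 (Sdf2l1) and 1 (Atf6) at an unadjusted p under 0.05, both lower and also named after their values were seen. The 7 NRF2 targets, the antioxidant genes, had medians of 0.03, -0.24 and 0.04, and Nqo1, a quinone reductase, had a log2FC of 0.69 in Sox2-KD (adjusted p = 0.135, edgeR), the only one of these targets with an unadjusted p under 0.05.

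Several stress transcription factors and secreted or effector genes had control libraries far apart, and none was called against control. Atf3, a stress-induced repressor, was at 4.45 and 1.72 CPM in control and had a log2FC of 1.01 in Sox2-KD (adjusted p = 0.470) and -1.63 in hnRNPK-KD (adjusted p = 0.637, edgeR). Cebpb, a partner of ATF4, had 0.77 in Sox2-KD (adjusted p = 0.503, edgeR), ranging from -0.0017 to 1.27 over all settings, left-out libraries among them. It was at 1.63 and 1.66 CPM in control and at 1.65 and 3.99 CPM in Sox2-KD. Nupr1, a stress-induced chromatin protein, was at 22.2 and 10.8 CPM in control and had -1.07 in hnRNPK-KD (adjusted p = 0.506) and -0.66 in Cdk9-KD (adjusted p = 0.549). Vegfa, the vascular growth factor, was at 75.5 and 24.4 CPM in control, the higher value again in replicate 1, and had -0.86 in hnRNPK-KD and -1.28 in Cdk9-KD. Ddit4, an inhibitor of mTORC1, had -0.62 in Cdk9-KD with control libraries at 59.8 and 22.9 CPM. The hormone genes Stc2 and Adm2 had -1.06 and -1.13 in Sox2-KD, and Adm2 had -1.97 in hnRNPK-KD, with Adm2 under 2 CPM throughout. Without control replicate 1 the value turned to 0.53 for Adm2 in Sox2-KD, to 0.19 for Ddit4 in Cdk9-KD and to 0.15 for Vegfa in hnRNPK-KD. It also came to -0.40 for Stc2 in Sox2-KD, -0.31 for Adm2, -0.48 for Nupr1 and -0.81 for Atf3 in hnRNPK-KD, and -0.28 for Vegfa and -0.09 for Nupr1 in Cdk9-KD. Atf3 in Sox2-KD had 1.84 in that fit, and 0.48 when the second control library was dropped in its place.

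**Figure D5:**
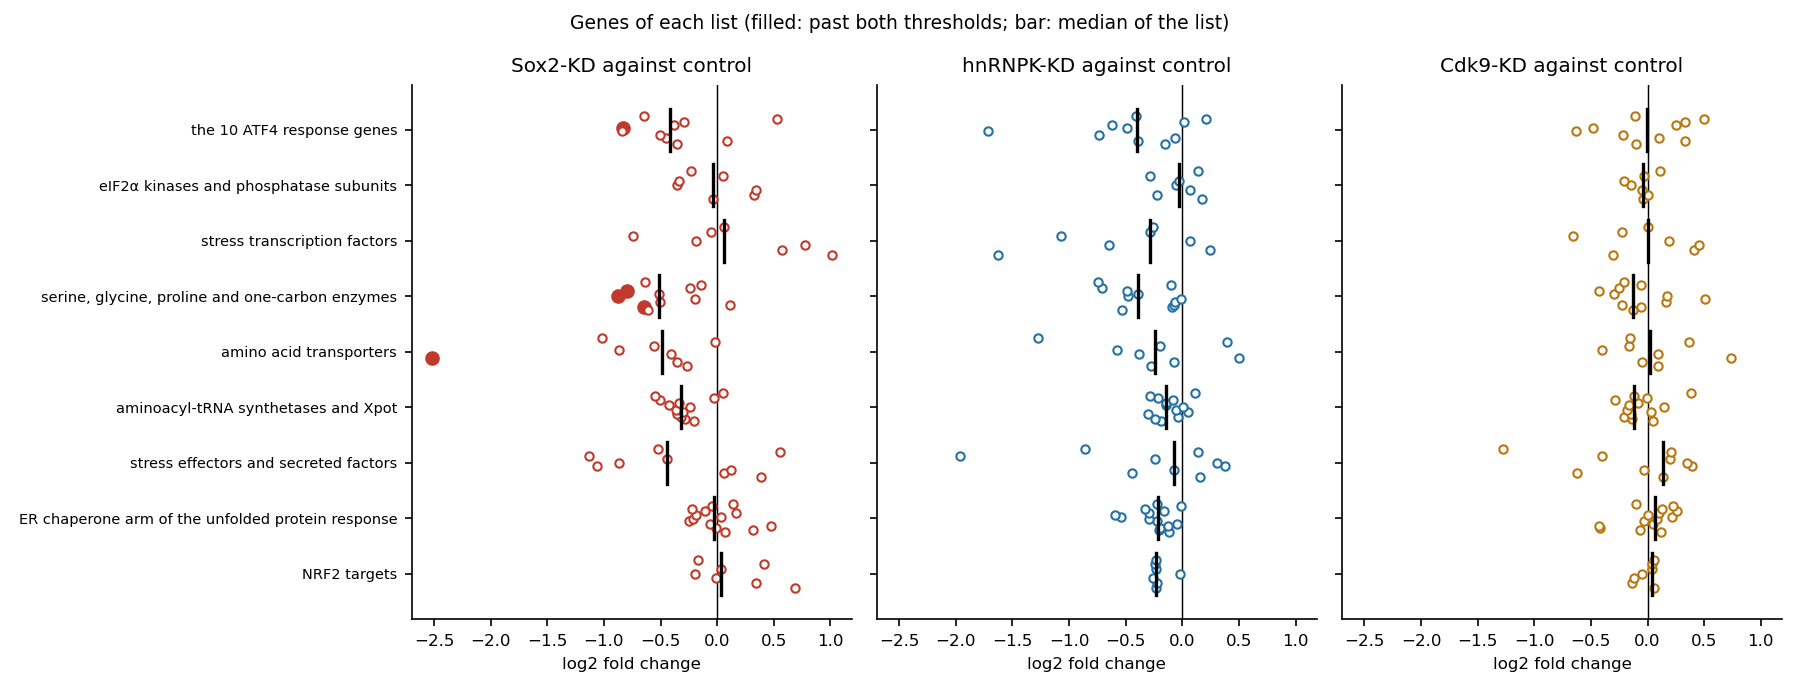
Log2FC against control (x axis) of every tested gene of the 9 lists (y axis), with filled points for called genes and a bar at the median of each list. The called genes all lie in the Sox2-KD panel: Psat1 among the 10 genes, Cth, Aldh18a1 and Shmt1 among the enzymes, and Slc7a3 (log2FC -2.52) among the transporters.

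Between knockdowns, 5 genes of these lists were called, and they are named here after their values were seen. Sox2-KD against hnRNPK-KD called 2 of 76, Slc7a3 lower and Nqo1 higher, where 5.90% of all genes were called. Sox2-KD against Cdk9-KD called 4 of 76, where 7.33% of all genes were called, namely Slc7a3, Aldh18a1 and Eif4ebp1, a repressor of translation initiation, lower and Ern1, an ER stress sensor, higher. Neither share was above that of all genes.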

How the data were processed

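E14 ESCs were profiled by RNA-seq of polyA RNA in 8 libraries. Per the submitters' processing notes and the study's methods, the authors trimmed reads with Trimmomatic, aligned them with STAR to mm10 (GENCODE vM23) and counted them with featureCounts 2.0.1, and deposited raw counts per gene, neither normalised nor pooled. Strand setting and treatment of shared reads are not given in the sources used here. Symbols, positions and exon lengths came from GENCODE vM21 (GRCm38), which named 55154 genes and missed 181.

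The filter on low counts was filterByExpr (10 per library, 15 in total). All 8 libraries entered 1 fit in edgeR 4.0.16 (R 4.3.3) with TMM, a group term and the quasi-likelihood test, and p-values were Benjamini-Hochberg adjusted over all genes tested. Groups were called different at an adjusted p under 0.05 with a log2FC beyond 0.6 in either direction. The SE is the absolute log2FC over the root of F, and the 95% intervals drawn from it are approximate. CPM values and depths carry counting error as well as replicate spread. The fit was tested on simulated data, where it called 81% of genes changed 0.25 or 4 times and 42% of those changed 0.5 or 2 times. Changes of the smaller size can thus be missed.

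The 10 genes and all lists (8 of pathway genes, 5 of cell type markers) were chosen with earlier results of these data known. Besides the 10 genes, the text names called pathway genes, the 2 with the largest absolute log2FC over 0.6 in each list and comparison with control, the 5 genes most like the mean profile and the targeted genes. Alternatives were DESeq2 1.42.0, median-of-ratios size factors, library totals, other filters, a replicate block, fits on only the 4 libraries compared, the likelihood ratio test, other thresholds and leaving out each library. Replicate pairs of each group differed far beyond counting noise. Figures were drawn with matplotlib 3.10.9.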

Additional observations from a re-analysis of the deposited data

How the results depend on the processing

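With 2 libraries in a group, the calls were few and moved with the settings. The count of the 10 genes called in Sox2-KD against control, 1 (Psat1), became 2 with DESeq2 and with the likelihood ratio test (Psat1 and Mthfd2), 0 with library totals (Psat1 log2FC -0.76, adjusted p = 0.0561, edgeR) and 0 with the replicate block (adjusted p = 0.0588). Of all genes tested, the main fit called 4.32%, DESeq2 6.23% and the likelihood ratio test 8.18%. Library totals gave 4.78% and the replicate block 4.21%. The call of Psat1 was lost without control replicate 1, Sox2-KD replicate 1 or Sox2-KD replicate 2 (log2FC -0.54, -0.76 and -0.92). A fit without a control or Sox2-KD library leaves 1 library in that group, and calls over all genes fell in each such fit. The 4 other pathway genes called became 5 with DESeq2 and the likelihood ratio test (with Slc1a4) and 3 with library totals. They became fewer when a control or Sox2-KD library was left out, as did the calls over all genes. Slc7a3 was called in each of the fits without one of these libraries, with Aldh18a1 beside it without control replicate 2. Without control replicate 1 the log2FC of Cth (-0.76) and Shmt1 (-0.77) stayed near the values with both, although the calls were lost. At an unadjusted p under 0.05 alone the counts of the 10 genes were 3 in Sox2-KD, 3 in hnRNPK-KD, 1 in Cdk9-KD, 4 in Sox2-KD against Cdk9-KD and 2 in Cdk9-KD against hnRNPK-KD, and those of the other pathway genes 21 in Sox2-KD, 10 in hnRNPK-KD and 4 in Cdk9-KD. No source says that replicate numbers pair the libraries, and same-numbered libraries did not deviate together (correlations from -0.22 to 0.21), so the block has no stated basis. Of the single fold changes, Shmt2 in hnRNPK-KD, 0.01, was -0.026 with library totals, -0.0041 with at least 10 counts in every library, -0.0058 with only the 4 libraries compared and -0.046 with the replicate block. With each library left out in turn, the log2FC ranged from -0.55 to 0.52 for Ddit3 and -1.58 to 0.74 for Chac1 in Sox2-KD. In hnRNPK-KD it ranged from -0.41 to 0.12 for Atf4, -0.52 to 0.38 for Shmt2 and -0.14 to 0.62 for Slc7a11. In Cdk9-KD it ranged from -0.39 to 0.15 for Atf4, -0.19 to 0.32 for Asns, -1.40 to 0.93 for Chac1, -0.0089 to 0.50 for Phgdh and -0.42 to 0.20 for Mthfd2. The cause of these shifts was not tested. Under settings other than left-out libraries, 232 of 240 values of single fold changes kept their direction and their side of the threshold. Slc7a11 had the fewest reads of the 10 genes, at most 28 in a library.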
